A study of Caenorhabditis elegans with 22 samples.

Results

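The *hsp-16* and *hsp-70* genes analyzed here are 9 of the 45460 named genes in the deposited table, chosen by their identifiers as the heat-inducible members of these families: *hsp-16.1* (T27E4.8), *hsp-16.11* (T27E4.2), *hsp-16.48* (T27E4.3), *hsp-16.49* (T27E4.9), *hsp-16.2* (Y46H3A.3), *hsp-16.41* (Y46H3A.2), *hsp-70* (C12C8.1), F44E5.4 and F44E5.5. The question was whether 500 mM NaCl engages the heat-shock program in embryos, and whether this differs with genotype or experiment. Across 4 comparisons of 500 mM with 50 mM NaCl, no comparison showed a joint increase of the 9 genes. The clearest increase was that of *hsp-70* in *daf-16* mutants, from between 0.86 and 1.65 FPKM to between 2.89 and 4.03 FPKM. In these mutants 39.5% of all genes tested were higher at 500 mM without overlap. Wild type of experiment 2 also had *hsp-70* between 3.41 and 4.23 FPKM at 500 mM. A difference between these genotypes in the salt response of *hsp-70* was not detected. The clearest feature of the *hsp-16* and HSP70 genes was that most of them rose and fell together from library to library within a group. The libraries of a group differed by up to 17.5-fold for those above 0 in every library, but by at most 1.92-fold in the salt-induced gene *gpdh-1*. *hsp-70* followed the others less closely in experiment 2.

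RNA-seq was performed on embryos kept for 3 h on plates with 50 mM or 500 mM NaCl, and values are FPKM (fragments assigned to a gene, scaled to its transcript length and to sequencing depth). Experiment 1 held 10 libraries, with 2 at 50 mM and 3 at 500 mM for each of wild type (Bristol strain N2) and *ssu-1(fc73)* mutants, which lack a cytosolic sulfotransferase that acts in the ASJ sensory neurons. Experiment 2 held 12 libraries, with 3 at each NaCl concentration for each of wild type (N2) and *daf-16(m26)* mutants, which carry a mutation in the FOXO transcription factor of insulin-like signaling. The alleles are those of the RNA-seq methods. The sample labels list for the *ssu-1* libraries the alleles *fc73*, *n5883*, *tm1117*, *gk266317*, *gk747222*, *gk876992* and *gk319712* with a *daf-16::gfp* array that also carries *rol-6*, and for the *daf-16* libraries both *m26* and *mu86*, so that the exact strain of a library cannot be told from them. The experiments were separated by the series of the library numbers. In experiment 2, 2 wild-type libraries at 50 mM, replicates 3 and 4, carry another series number than the other 10.

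In *C. elegans*, heat and other conditions that unfold proteins activate the transcription factor HSF-1, which binds heat-shock elements and switches on a small set of genes from a very low level. The HSP-16 proteins are small heat-shock proteins of the α-crystallin type that hold unfolded proteins in solution, and the inducible HSP70 proteins refold them with ATP and J-domain partners. These genes are widely used as reporters of the heat-shock response, and in the embryo they become inducible only after the earliest cell divisions.

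All 15 embryo markers together summed to between 417 and 779 FPKM in every library, and 11 of the 15 were at 1 FPKM or more in every library. The 6 yolk protein genes that mark adults summed to between 1.16 and 2.7 FPKM, and the 5 sperm markers to between 0.51 and 1.98 FPKM. Mapped fragments are not in the files, and the depth of the libraries, estimated from the steps between low values, ranged from 0.743 to 1.327 times that of wild type at 50 mM, replicate 1, of experiment 1. Exposure to salt was visible in *gpdh-1*, a glycerol 3-phosphate dehydrogenase gene of glycerol synthesis, which was at 4.42 and 4.7 FPKM in wild type at 50 mM in experiment 1 and at 196, 228 and 222 FPKM at 500 mM. In wild type of experiment 2, *gpdh-1* was at 3.61, 2.51 and 1.88 FPKM at 50 mM and at 134, 137 and 145 FPKM at 500 mM. The change of *gpdh-1*, its mean level at 500 mM divided by 1 plus its mean level at 50 mM, was 38.7 and 37.8 in wild type, 63.2 in the *ssu-1* mutant and 40.8 in the *daf-16* mutant.

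**Figure D1:**
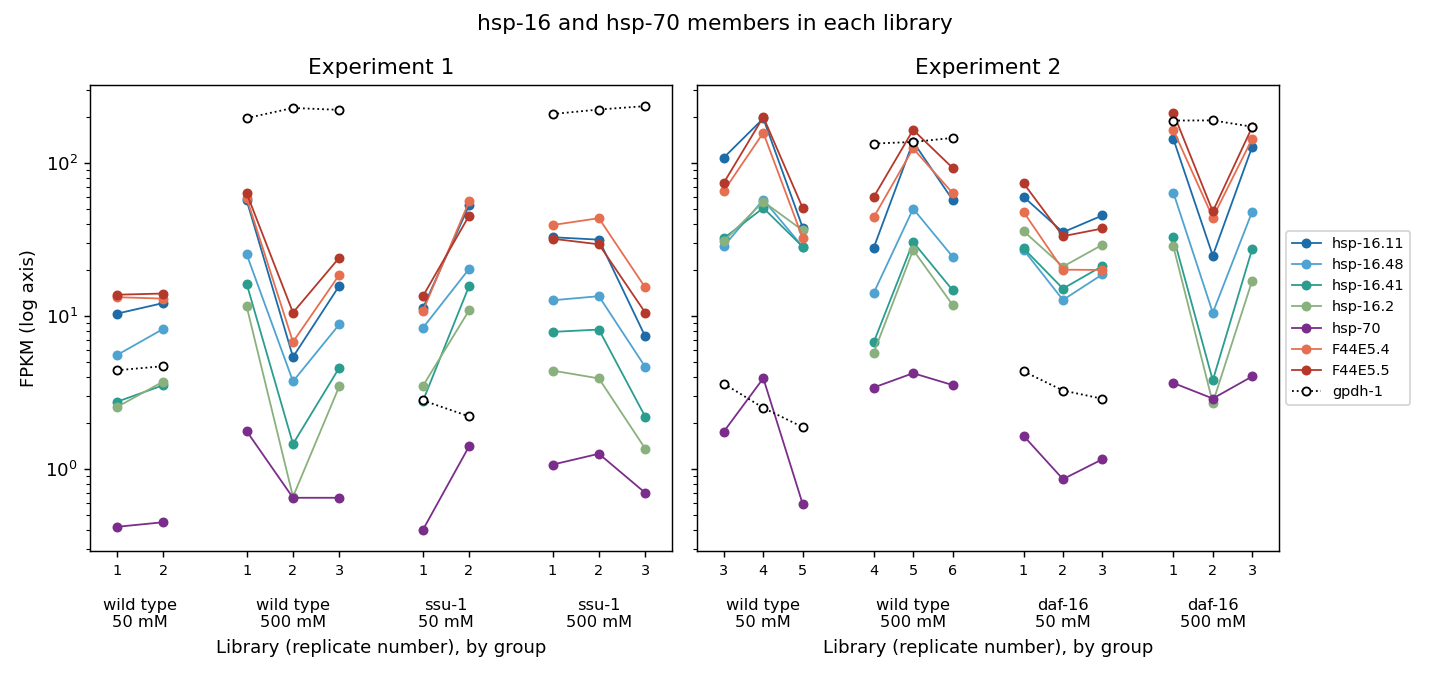
FPKM on a log axis in each library, grouped by genotype and NaCl concentration, for *hsp-16* and HSP70 genes and for *gpdh-1* (open symbols). Lines only join the libraries of a group. *hsp-16.49* has the values of *hsp-16.48*, and *hsp-16.1*, mostly listed at 0, is not drawn. Most of the colored lines rise and fall together within groups, but *hsp-70* follows the others less closely in experiment 2. In wild type at 500 mM of that experiment, *hsp-70* stays between 3.41 and 4.23 FPKM, while *hsp-16.11* lies between 27.88 and 137.18 FPKM. *gpdh-1* separates 50 mM from 500 mM in every genotype.

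The 4 genes *hsp-16.1*, *hsp-16.48*, *hsp-16.49* and *hsp-16.11* are neighbors on chromosome V, an inverted duplication whose copies are nearly identical. FPKM could therefore not be told apart between copies. *hsp-16.48* and *hsp-16.49* had the same value in 22 of 22 libraries and are 1 measurement here. *hsp-16.1* was listed at 0 in 10 of 10 libraries of experiment 1 and in 8 of 12 libraries of experiment 2. In the 4 libraries where it was above 0, at 25.1, 35.9, 15.4 and 13.3 FPKM, it took between 8.51% and 48.8% of the sum of *hsp-16.1* and its copy *hsp-16.11*, so that the sum of the pair is the more reliable value.

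The sum of *hsp-16.1* and *hsp-16.11* was at 10.35 and 12.14 FPKM in wild type at 50 mM in experiment 1 and at 57.0, 5.40 and 15.8 FPKM at 500 mM. One library at 500 mM lay well above both libraries at 50 mM and another lay below both. The pair was at 11.2 and 52.7 FPKM in the *ssu-1* mutant at 50 mM and at 32.7, 31.5 and 7.35 FPKM at 500 mM, and again the groups overlapped. In wild type of experiment 2 the pair was at 108, 220 and 73.5 FPKM at 50 mM and at 27.9, 137 and 57.4 FPKM at 500 mM. The pair stood at 75.4, 35.2 and 45.3 FPKM in *daf-16* embryos at 50 mM and at 156, 24.8 and 127 FPKM at 500 mM. The highest library was at 50 mM in wild type and at 500 mM in *daf-16* mutants, and in both genotypes the lowest library was at 500 mM.

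*hsp-16.48*, which encodes the other type of small heat-shock protein of this cluster, was at 5.55 and 8.23 FPKM in wild type at 50 mM in experiment 1 and at 25.3, 3.74 and 8.82 FPKM at 500 mM. The order of the libraries was that of the *hsp-16.1* and *hsp-16.11* pair. Embryos of *ssu-1* had *hsp-16.48* at 8.34 and 20.3 FPKM at 50 mM and at 12.7, 13.5 and 4.65 FPKM at 500 mM. In experiment 2 it was at 28.6, 57.5 and 28.3 FPKM in wild type at 50 mM and at 14.1, 50.1 and 24.4 FPKM at 500 mM. *daf-16* embryos had 27.04, 12.7 and 18.7 FPKM at 50 mM and 63.8, 10.5 and 48.0 FPKM at 500 mM. The 50 mM and 500 mM libraries overlapped in each genotype.

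*hsp-16.2* and *hsp-16.41* form the second cluster on chromosome V, where they are adjacent and divergently transcribed, and *hsp-16.2* is the gene used in most heat-shock reporters. In experiment 1, *hsp-16.2* was at 2.54 and 3.73 FPKM in wild type at 50 mM and at 11.6, 0.66 and 3.48 FPKM at 500 mM. In *ssu-1* embryos the values were 3.48 and 10.9 FPKM at 50 mM and 4.4, 3.91 and 1.36 FPKM at 500 mM. The groups overlapped in both genotypes. In experiment 2, *hsp-16.2* was at 30.9, 55.8 and 36.2 FPKM in wild type at 50 mM and at 5.74, 26.96 and 11.8 FPKM at 500 mM. Every library at 500 mM was thus below every library at 50 mM. In *daf-16* embryos the values were 35.8, 21.0 and 29.2 FPKM at 50 mM and 28.4, 2.71 and 17.04 FPKM at 500 mM, where 1 library at 500 mM exceeded the lowest at 50 mM.

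*hsp-16.41* was at 2.75 and 3.53 FPKM in wild type at 50 mM in experiment 1 and at 16.22, 1.46 and 4.6 FPKM at 500 mM, and in *ssu-1* mutants at 2.77 and 15.7 FPKM and at 7.87, 8.15 and 2.20 FPKM. In experiment 2 it was at 32.2, 50.7 and 28.3 FPKM in wild type at 50 mM and at 6.73, 30.4 and 14.8 FPKM at 500 mM, and in *daf-16* mutants at 27.6, 15.1 and 21.2 FPKM and at 32.9, 3.80 and 27.4 FPKM. Its libraries overlapped between the NaCl concentrations in all 4 comparisons.

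Of the HSP70 genes, *hsp-70* on chromosome I had the lowest values. It was at 0.42 and 0.45 FPKM in wild type at 50 mM in experiment 1 and at 1.77, 0.65 and 0.65 FPKM at 500 mM. All 3 libraries at 500 mM were above both at 50 mM, at levels near or under 1 FPKM in all but 1 library. The *ssu-1* mutant had *hsp-70* at 0.40 and 1.41 FPKM at 50 mM and at 1.07, 1.26 and 0.70 FPKM at 500 mM, with overlap. In experiment 2 it was at 1.76, 3.92 and 0.59 FPKM in wild type at 50 mM and at 3.41, 4.23 and 3.54 FPKM at 500 mM. One wild-type library at 50 mM lay within the range at 500 mM. The *daf-16* mutant had values of 1.65, 0.86 and 1.16 FPKM at 50 mM and of 3.65, 2.89 and 4.03 FPKM at 500 mM, with no overlap.

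F44E5.4 and F44E5.5 are neighboring, nearly identical HSP70 genes on chromosome II. F44E5.5 was at 13.8 and 14.0 FPKM in wild type at 50 mM in experiment 1 and at 63.3, 10.5 and 24.0 FPKM at 500 mM, and in *ssu-1* mutants at 13.4 and 45.2 FPKM and at 31.9, 29.4 and 10.5 FPKM. In experiment 2, F44E5.5 was at 74.2, 199 and 50.6 FPKM in wild type at 50 mM and at 59.8, 164 and 92.7 FPKM at 500 mM. The wild-type range at 500 mM lay within that at 50 mM. In *daf-16* mutants F44E5.5 was at 73.5, 33.2 and 37.2 FPKM at 50 mM and at 211, 48.1 and 171 FPKM at 500 mM. F44E5.4 was at 47.8, 20.1 and 19.96 FPKM in *daf-16* mutants at 50 mM and at 163, 43.9 and 144 FPKM at 500 mM. In both genes 2 of the 3 *daf-16* libraries at 500 mM were above all libraries at 50 mM and the third was between them. In wild type F44E5.4 was at 13.3 and 12.98 FPKM at 50 mM and at 58.9, 6.77 and 18.6 FPKM at 500 mM in experiment 1, and at 65.6, 157 and 32.2 FPKM and at 44.1, 124 and 63.6 FPKM in experiment 2. In *ssu-1* embryos F44E5.4 was at 10.7 and 56.0 FPKM at 50 mM and at 39.2, 43.5 and 15.3 FPKM at 500 mM, and these groups overlapped too.

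Counted over all members, libraries at 500 mM were above those at 50 mM without overlap for 1 of 8 genes tested in wild type of experiment 1 (*hsp-70*), against 33.7% of all genes, and were lower for 0 of 8, against 35%. In *ssu-1* mutants the counts were 0 of 8 higher (30.4% of all genes) and 0 of 8 lower (30.7%). In wild type of experiment 2 they were 0 of 9 higher (36.6%) and 1 of 9 lower (*hsp-16.2*, 33.9%), and in *daf-16* mutants 1 of 9 higher (*hsp-70*, 39.5%) and 0 of 9 lower (43.8%). The share of members without overlap was thus below that of all genes in each direction of each comparison.

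For each gene, log2(FPKM + 1) was compared by limma, and p-values were adjusted by the Benjamini-Hochberg method over all genes of an experiment with at least 1 FPKM in at least 2 libraries. In experiment 1, 8 of the 9 genes could be tested, all but *hsp-16.1*. By limma, salt changed 0 of these 8 in wild type, against 51.3% of all 13924 genes tested (25.3% higher and 26% lower). The *ssu-1* mutant also had 0 of 8, against 36.6% of all genes (18.5% higher and 18.1% lower), and 0 of 8 had an unadjusted p under 0.05 in either genotype. The log2 changes of the 8 genes lay between 0.15 and 0.83 in wild type, with a median of 0.51 against -0.01 over all genes, standard errors from 0.27 to 0.89 and limma adjusted p-values from 0.19 to 0.873. In *ssu-1* mutants they lay between -0.88 and 0.25, with a median of -0.30 against 0 over all genes and limma adjusted p-values from 0.357 to 0.85. The direction also rested on single libraries. Without wild type 500 mM replicate 1 the median of the log2 changes in wild type was -0.19 and without replicate 2 it was 1.15. In *ssu-1* mutants it was -1.04 without 50 mM replicate 1, 0.58 without 50 mM replicate 2 and 0.21 without 500 mM replicate 3.

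A difference in the salt response between *ssu-1* mutants and wild type was not detected. The interaction of genotype and NaCl passed limma's threshold for 0 of the 8 genes, with 0 at an unadjusted p under 0.05, against 1.37% of all genes (0.682% higher and 0.689% lower), and the log2 differences (*ssu-1* minus wild type) lay between -1.03 and -0.31 with standard errors between 0.39 and 1.26. At 50 mM, *ssu-1* mutants differed from wild type in 0 of the 8 genes by limma (0 at an unadjusted p under 0.05), against 0.646% of all genes (0.165% higher and 0.481% lower). At 500 mM the count was also 0 of 8 (0 unadjusted), against 5.64% of all genes (2.83% higher and 2.82% lower). At 50 mM the log2 differences were between 0.36 and 1.07. Replicate 2 of the 2 *ssu-1* libraries was the higher one for 8 of 8 genes. Both *ssu-1* libraries were above both wild-type libraries for 2 of 8 genes, *hsp-16.48* and *hsp-16.49*, which are 1 measurement, against 24% of all genes, and below them for 0 of 8, against 18%. At 500 mM the count without overlap was 0 of 8 in either direction, against 16.2% of all genes higher and 9.12% lower.

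In experiment 2, all 9 genes were tested, and salt changed 2 of them in wild type, against 70.1% of the 14868 genes tested (36.7% higher and 33.5% lower). *hsp-16.2* fell, with a log2 change of -1.60 (SE 0.64, limma adjusted p = 0.0403), and *hsp-70* rose, with a log2 change of 0.76 (SE 0.30, limma adjusted p = 0.0404). Both were close to the threshold. Leaving out each of the 12 libraries of experiment 2 in turn, *hsp-16.2* passed in 6 fits, with log2 changes from -2.13 to -1.10, and *hsp-70* in 5 fits, with log2 changes from 0.36 to 1.17. With the library series as a term in the model, *hsp-16.2* no longer passed (log2 change -1.47, limma adjusted p = 0.184). In that fit replicate 5 is the only wild-type library at 50 mM that enters the salt change, so it adds no support for *hsp-70*, whose log2 change was 0.36 without replicate 5 (limma adjusted p = 0.187). With the replicate number as a block, neither *hsp-70* (log2 change 0.78, limma adjusted p = 0.134) nor *hsp-16.2* (log2 change -1.74, limma adjusted p = 0.0712) passed. These numbers do not mark known pairs: number 3 joins wild type at 50 mM with *daf-16* libraries, and number 6 stands alone. The block therefore cannot decide on these changes. The other members had log2 changes between -3.30 (*hsp-16.1*, SE 1.41, limma adjusted p = 0.0518, a gene whose value depends on how copies were split) and 0.09 (F44E5.5, SE 0.59).

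In *daf-16* mutants of experiment 2, all 3 HSP70 genes rose and 0 of the 6 *hsp-16* genes passed the test by limma in either direction, with 0 of the 6 at an unadjusted p under 0.05. Of all genes tested, 78.1% passed, 37.1% higher and 41.1% lower at 500 mM. The log2 change was 1.03 for *hsp-70* (SE 0.30, limma adjusted p = 0.00759), 1.88 for F44E5.4 (SE 0.60, limma adjusted p = 0.0122) and 1.40 for F44E5.5 (SE 0.59, limma adjusted p = 0.0436). The increase of *hsp-70* passed without each of the 12 libraries in turn, with log2 changes from 0.91 to 1.17, that of F44E5.4 in 11 of 12 fits and that of F44E5.5 in 6 of 12 fits. F44E5.4 and F44E5.5 share reads and do not count as independent. Without *daf-16* 500 mM replicate 2, the library with the lowest values, 6 of the 9 genes rose, and the 3 added were *hsp-16.11*, *hsp-16.48* and *hsp-16.49*. Without *daf-16* 500 mM replicate 1, the library with the highest mean deviation, 1 gene rose (*hsp-70*) and 1 fell (*hsp-16.2*), while F44E5.4 (log2 change 1.53, limma adjusted p = 0.0556) and F44E5.5 (log2 change 1.00, limma adjusted p = 0.173) no longer passed. The interaction of genotype and NaCl passed for 0 of the 9 genes, with 1 of 9 at an unadjusted p under 0.05, against 18.1% of all genes (6.85% higher and 11.2% lower). The gene at an unadjusted p under 0.05 was F44E5.4, with a log2 difference of 1.86 (*daf-16* minus wild type, SE 0.85, limma adjusted p = 0.141). For *hsp-70* the log2 difference was 0.27 (SE 0.43, limma adjusted p = 0.671). Without *daf-16* 500 mM replicate 2 the interaction passed for 3 of the 9 genes, and without wild type 50 mM replicate 5 for 1.

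**Figure D2:**
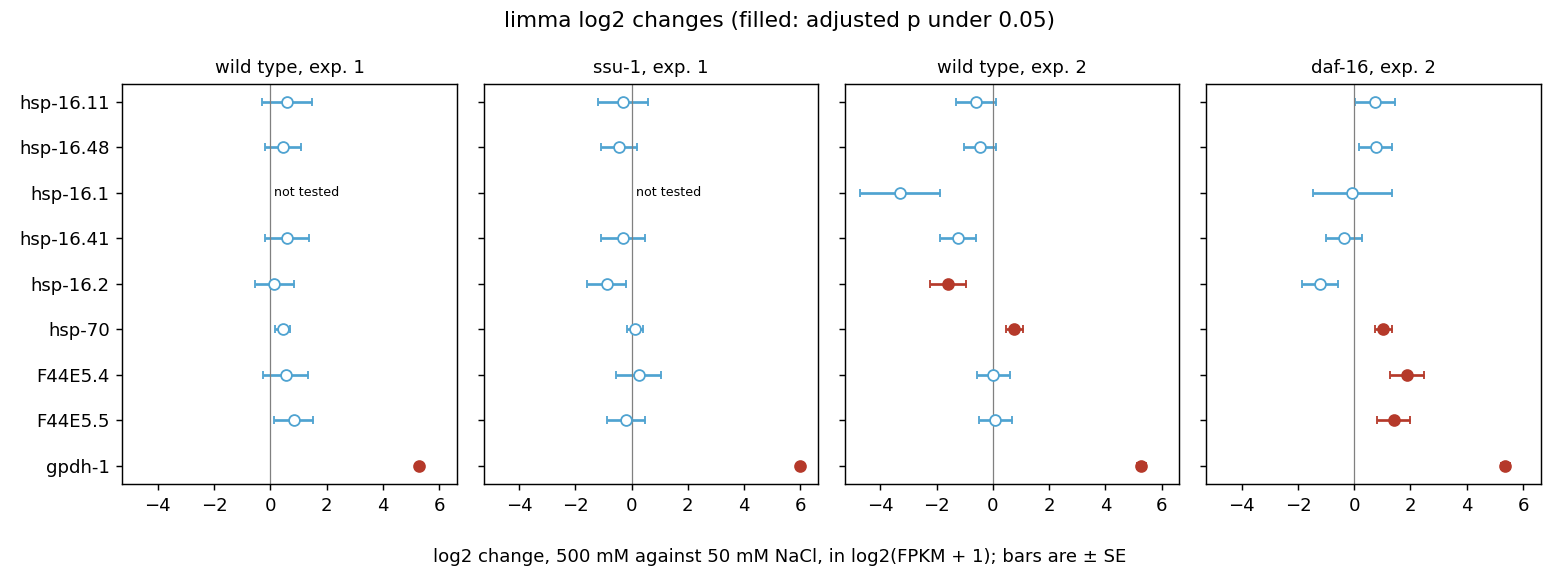
limma log2 change at 500 mM against 50 mM NaCl on the log2(FPKM + 1) scale, with standard errors, in the 4 comparisons. Filled symbols passed the adjusted threshold of 0.05. The members lie between -3.30 and 1.88, and *gpdh-1* lies between 5.28 and 5.99 in every panel.

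At 50 mM, *daf-16* mutants differed from wild type in 0 of the 9 genes by limma, with 1 at an unadjusted p under 0.05, against 3.68% of all genes (2.58% higher and 1.1% lower). The log2 differences were between -1.96 and -0.34. Every *daf-16* library was below every wild-type library for 3 of 9 genes, *hsp-16.41* and the *hsp-16.48* and *hsp-16.49* pair, against 5.65% of all genes, and above for 0 of 9, against 14.9%. At 500 mM, 0 of the 9 differed (0 unadjusted), against 29.2% of all genes (16.3% higher and 12.9% lower), with log2 differences from -0.10 to 1.28. The counts without overlap were 0 of 9 in both directions, against 29.2% higher and 24.3% lower. Wild type could also be compared between the experiments. The genes stood higher at 50 mM in experiment 2, where *hsp-16.2* was between 30.9 and 55.8 FPKM against 2.54 and 3.73 FPKM in experiment 1. In 8 of the 9 genes every wild-type library of experiment 2 at 50 mM was above both of experiment 1, against 34.8% of all 14638 genes tested, and 0 of 9 were lower, against 39.5%. At 500 mM this held for 1 of the 9 genes (*hsp-70*), against 29.8% of all genes, and 0 of 9 were lower, against 35.6%. The interaction of experiment and NaCl in wild type passed limma's threshold for 0 of the 9 genes, with 1 at an unadjusted p under 0.05, against 31.6% of all genes (17% higher and 14.6% lower). It passed for 2 genes, *hsp-16.2* and *hsp-16.41*, without wild type 500 mM replicate 2 of experiment 1. Experiment and library series cannot be told apart here.

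By the change of group means defined for *gpdh-1*, 2 of the 9 genes were above 2 in wild type of experiment 1 (*hsp-16.11* at 2.13 and F44E5.5 at 2.19), against 2.07% of all genes tested. This count was 0 without wild type 500 mM replicate 1 and 6 without replicate 2. The count was 0 of 9 in *ssu-1* embryos (1.08% of all genes) and 0 of 9 in wild type of experiment 2 (6.9%). In *daf-16* mutants it was 3 of 9 (11.2%), with F44E5.4 at 3.87, F44E5.5 at 2.93 and *hsp-16.11* at 2.06. The change of *hsp-70* was 1.58 in *daf-16* mutants, held down by the 1 added to the low mean at 50 mM.

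Libraries of the same group differed widely. The highest was above the lowest by 1 or more on the log2(FPKM + 1) scale for 7 of 8 genes in wild type at 500 mM in experiment 1, against 2.09% of all genes. The same held for 7 of 8 in *ssu-1* mutants at 50 mM (0.718% of all genes) and 7 of 8 at 500 mM (0.704%). In wild type at 50 mM it was 0 of 8 (0.582%). In experiment 2 it was 5 of 9 and 7 of 9 in wild type at 50 mM and 500 mM (6.58% and 0.827% of all genes) and 5 of 9 and 8 of 9 in *daf-16* mutants (0.888% and 1.69%). The median range of the members in wild type at 500 mM in experiment 1 was 2.64 on the log2 scale, and that of all genes was 0.19. For *hsp-16.2* the highest of these 3 libraries was 17.5 times the lowest and for *hsp-16.11* it was 10.5 times.

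The genes moved together in this spread. In wild type at 500 mM in experiment 1, replicate 1 was above the group mean for 8 of 8 genes, by a mean of 1.31 on the log2 scale, and replicate 2 was below it for 8 of 8, with a mean of -1.19. Replicate 2 of *ssu-1* at 50 mM was above the group mean for 8 of 8 genes, with a mean of 0.80, and replicate 3 of *ssu-1* at 500 mM was below it for 8 of 8, with a mean of -0.87. In experiment 2, wild type 50 mM replicate 4 was above for 9 of 9 genes, with a mean of 0.87, and *daf-16* 500 mM replicate 2 was below for 9 of 9, with a mean of -1.35. The means of experiment 2 include *hsp-16.1*. Pearson's r between the deviations of 2 genes had a median of 0.979 over 27 pairs in experiment 1 (10 libraries, lowest 0.874) and of 0.905 over 27 pairs in experiment 2 (12 libraries, *hsp-16.1* left out, lowest 0.422). *hsp-16.48* and *hsp-16.49* are 1 measurement. Only the pair of these 2 was left out, so each pair with another gene is counted for both. The counts of genes above or below the group mean include both as well. These correlations describe libraries in which all genes share the same RNA, depth and processing, and near-identical copies share reads. They include pairs on 3 chromosomes, so that the common movement was not confined to copies that share reads.

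**Figure D3:**
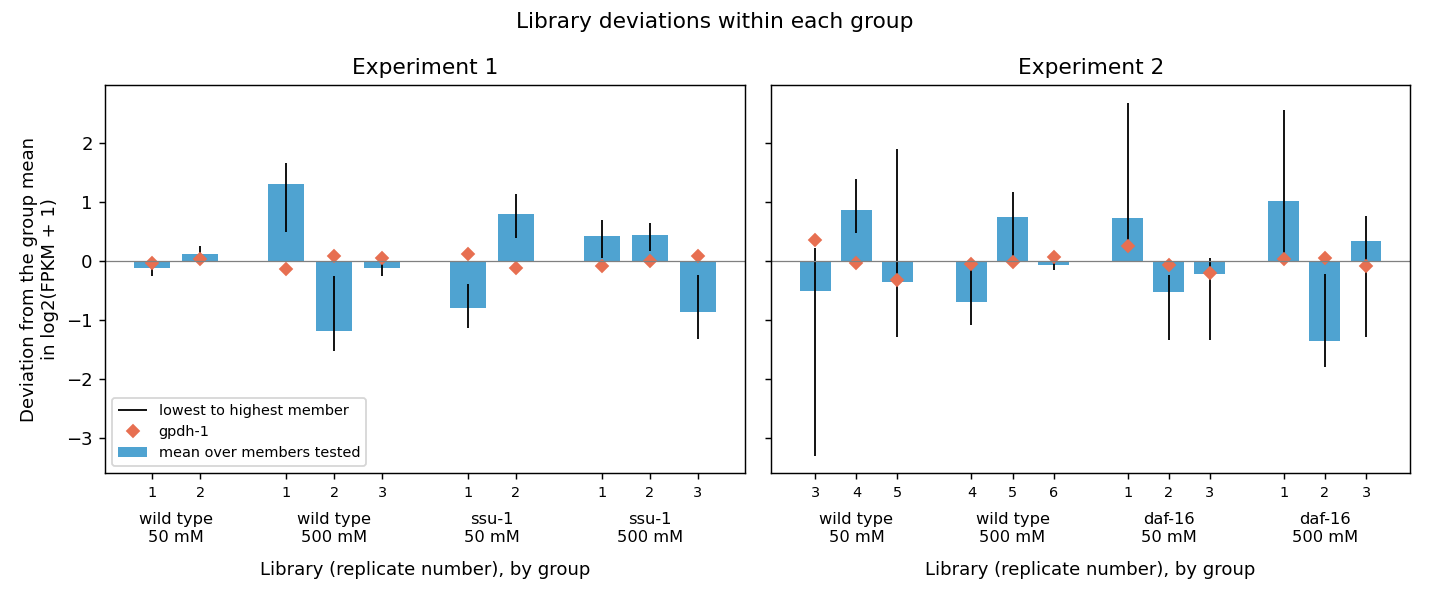
Deviation of each library from its group mean on the log2(FPKM + 1) scale. Bars are the mean over the members tested, vertical lines run from the lowest to the highest member, and diamonds show *gpdh-1*. In experiment 2 the ends of the longest lines, at -3.30 and 2.69, belong to *hsp-16.1*, which is listed at 0 in 8 of 12 libraries and is included in the bars.

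Genes outside the 2 families followed the same course. Likeness was measured as Pearson's r between a gene's deviations from its group means and the mean deviation of the members, over the 10 libraries of experiment 1. In experiment 2 this mean also includes *hsp-16.1*, whose value depends on how copies were split. The r values of experiment 2 without *hsp-16.1* were not computed. Of 1414 other genes whose deviations had an SD of at least 0.25, 77 had r of at least 0.9. The 10 most alike were F18E3.13 (r = 0.996), *gadr-2* (0.987), *rhy-1* (0.979), *btb-12* (0.979), F10G2.4 (0.978), F19F10.1 (0.975), Y46G5A.38 (0.974), *fbxb-105* (0.973), *sdz-9* (0.973) and *hsp-12.3* (0.972). *hsp-12.3* encodes a small heat-shock protein, *rhy-1* a membrane protein that restrains the hypoxia factor HIF-1, and *fbxb-105* an F-box protein. Over the 12 libraries of experiment 2, r was at least 0.5 for 64 of the 76 alike genes tested there and at least 0.9 for 11, among them *vet-1* (0.922), *lact-4* (0.945), *gst-19* (0.905), *aptf-4* (0.905) and the F-box genes *fbxb-60* (0.914), *fbxb-108* (0.912), *fbxb-17* (0.910) and *fbxb-11* (0.904). Of the 10 most alike genes, Y46G5A.38, F18E3.13 and *hsp-12.3* had r = 0.128, 0.315 and 0.368 in experiment 2. The rest of the 10 lay between 0.767 (*btb-12*) and 0.884 (*fbxb-105*). Of the 16 cytosolic chaperone and co-chaperone genes, 5 had r of at least 0.5 in experiment 1 and 9 in experiment 2, with medians of 0.272 and 0.534. *hsp-110*, whose protein releases nucleotide from HSP70, had r = 0.943 and 0.860, the HSP90 gene *hsp-90* 0.944 and 0.252, the constitutive HSP70 gene *hsp-1* 0.854 and 0.001, and the co-chaperone gene *cdc-37* -0.687 and 0.265. *gpdh-1* had r = -0.890 and 0.095.

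Embryo markers were compared with the members in the same way. *pes-10*, a gene transcribed in early embryonic somatic cells, had r = 0.847 with the members in experiment 1 and 0.901 in experiment 2, and *nos-2*, a maternal RNA of the germ lineage, had 0.902 and 0.704. *pos-1*, another maternal RNA, had 0.324 and 0.645. Of the 13 embryo markers tested, 6 had r of at least 0.5 in experiment 1 and 9 in experiment 2, with medians of 0.462 and 0.613. Of all other genes tested, 14.4% and 20.5% had r of at least 0.5. Among the 1414 genes with an SD of at least 0.25 in experiment 1, 504 did. *hlh-1*, a muscle lineage gene, had -0.700 and -0.067. The embryo markers *elt-2* and *lin-26* had -0.910 and -0.578 in experiment 1, and 0.352 and -0.002 in experiment 2. In wild type at 500 mM in experiment 1, *pes-10* was at 4.33, 1.37 and 1.23 FPKM, and the library with the highest members also had the highest *pes-10*. The library with the lowest members, at 1.37 FPKM, did not have the lowest *pes-10*. In *daf-16* mutants at 500 mM *pes-10* was at 5.08, 1.76 and 5.07 FPKM, and the library with the lowest members had the lowest *pes-10*.

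The embryo markers also moved with NaCl. Their sum in experiment 2 was between 418 and 485 FPKM in wild type at 50 mM and between 507 and 536 FPKM at 500 mM, and between 417 and 429 FPKM against 646 and 779 FPKM in *daf-16* mutants. In experiment 1 it was between 567 and 605 FPKM in wild type at 50 mM and between 582 and 718 FPKM at 500 mM, and in *ssu-1* mutants between 626 and 649 FPKM and between 638 and 665 FPKM. *pes-10* was at 0.50, 0.37 and 0.14 FPKM in *daf-16* mutants at 50 mM. In *daf-16* embryos the sum of the adult markers was between 1.62 and 1.77 FPKM at 50 mM and between 2.57 and 2.7 FPKM at 500 mM, and that of the sperm markers between 0.57 and 0.92 FPKM and between 1.53 and 1.98 FPKM. Of the 13 embryo markers tested, 8 rose in wild type of experiment 1 (25.3% of all genes) and 1 in *ssu-1* mutants (18.5%). In both genotypes 0 fell, against 26% and 18.1% of all genes. In wild type of experiment 2, 8 rose and 1 fell, against 36.7% and 33.5% of all genes. For *daf-16* mutants the counts were 10 and 1, against 37.1% and 41.1%. The part of embryo stage in the levels of the members was not tested. In whole embryos, more cells that express a gene and more RNA per cell cannot be told apart.

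**Figure D4:**
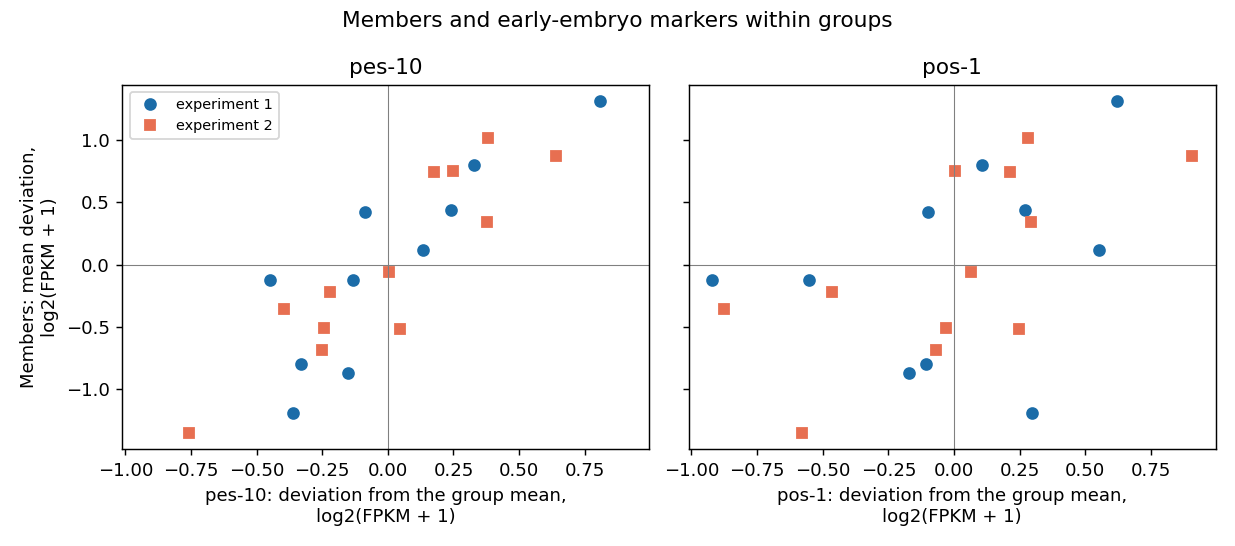
Mean deviation of the members from the group mean in each library (vertical) against the deviation of the early-embryo genes *pes-10* and *pos-1* (horizontal), both on the log2(FPKM + 1) scale. The 10 libraries of experiment 1 and 12 of experiment 2 run along the diagonal for *pes-10* (r = 0.847 and 0.901) and less closely for *pos-1* (r = 0.324 and 0.645). The members' mean in experiment 2 includes *hsp-16.1*.

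Genes that move together can also be compared by their ratio within a library. The ratios were chosen after the values were seen and are given without a test. *hsp-16.2* over *hsp-16.48* was 1.08, 0.97 and 1.28 in wild type at 50 mM in experiment 2 and 0.406, 0.538 and 0.485 at 500 mM. For *daf-16* it was 1.32, 1.65 and 1.56 at 50 mM and 0.445, 0.258 and 0.355 at 500 mM. Every library at 500 mM was below every library at 50 mM, and the mean ratio was lower by 2.33-fold in wild type and 4.29-fold in *daf-16* mutants. The level of *hsp-16.2* itself overlapped between the concentrations in *daf-16* mutants. In experiment 1 this ratio was 0.458 and 0.453 in wild type at 50 mM and 0.457, 0.176 and 0.395 at 500 mM, which overlapped. It was 0.417 and 0.537 in *ssu-1* mutants at 50 mM and 0.348, 0.29 and 0.292 at 500 mM, lower by 1.54-fold in the mean without overlap.

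*hsp-16.41*, the neighbor of *hsp-16.2*, shifted in the same direction in experiment 2. Its ratio to *hsp-16.48* averaged 1.00 ± 0.122 (SD, n = 3) in wild type at 50 mM and 0.562 ± 0.0745 (SD, n = 3) at 500 mM, and 1.11 ± 0.0836 against 0.483 ± 0.108 in *daf-16* mutants, again without overlap. In experiment 1 the ratio was already low at 50 mM, 0.462 ± 0.0471 (SD, n = 2) in wild type, and overlapped with that at 500 mM, 0.518 ± 0.126 (SD, n = 3). The ratio of *hsp-16.2* to *hsp-16.41* was lower in every library at 500 mM than in every library at 50 mM in all 4 comparisons, by 1.55-fold in the mean in wild type and 1.77-fold in *ssu-1* mutants in experiment 1, and by 1.31-fold in wild type and 1.85-fold in *daf-16* mutants in experiment 2. The gaps were narrow, between 0.958 at 50 mM and 0.887 at 500 mM in wild type of experiment 2 and between 0.694 and 0.618 in *ssu-1* mutants.

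**Figure D5:**
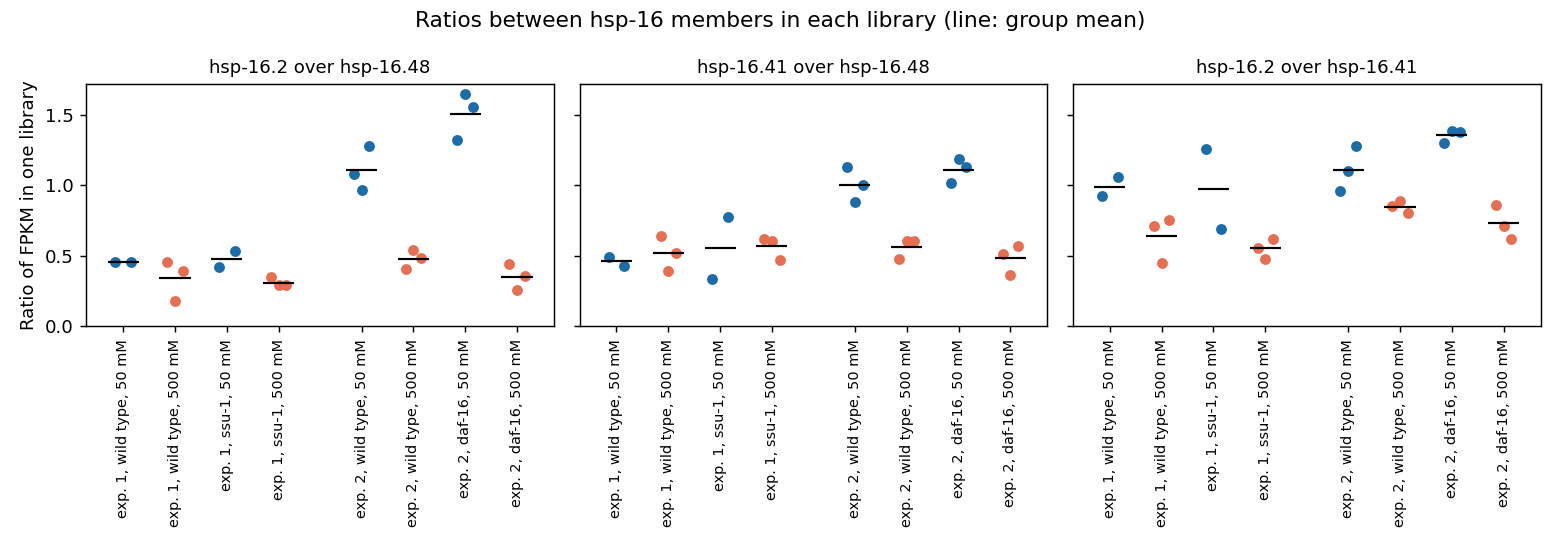
Ratio of the FPKM of 2 *hsp-16* genes in each library, by experiment, genotype and NaCl concentration (50 mM in blue, 500 mM in orange), with group means as lines. *hsp-16.2* over *hsp-16.48* lies between 0.97 and 1.65 in the 50 mM libraries of experiment 2 and between 0.258 and 0.538 at 500 mM.

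Of the HSP70 genes, F44E5.5 was set against *hsp-16.48*. F44E5.5 over *hsp-16.48* in *daf-16* embryos averaged 2.44 ± 0.391 (SD, n = 3) at 50 mM and 3.82 ± 0.675 at 500 mM, and 2.09 ± 0.549 (SD, n = 2) against 2.68 ± 0.159 (SD, n = 3) in wild type of experiment 1, without overlap in either. The libraries of wild type nearly touched, at 2.48 at 50 mM and 2.5 at 500 mM. In wild type of experiment 2 it was 2.62 ± 0.836 against 3.77 ± 0.48, and in *ssu-1* mutants 1.92 ± 0.437 against 2.32 ± 0.178, and there the libraries overlapped. The mean ratio of *hsp-70* to F44E5.5 was higher at 500 mM without overlap in *ssu-1* mutants (1.56-fold) and wild type of experiment 2 (2.2-fold). It overlapped in wild type of experiment 1 and in *daf-16* mutants. F44E5.4 over F44E5.5 was higher without overlap in *daf-16* mutants (1.41-fold) and overlapped in the other comparisons.

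Other genes of the heat-shock system are given for comparison, from lists chosen by known function. *hsf-1* itself was between 41.6 and 47.4 FPKM in wild type of experiment 1 and did not pass the test (log2 change 0.11, SE 0.06, limma adjusted p = 0.132). In experiment 2, *hsf-1* rose in wild type from 27.8, 31.7 and 28.3 FPKM to 47.6, 45.1 and 44.8 FPKM (log2 change 0.63, limma adjusted p = 5.59e-06) and in *daf-16* mutants by a log2 change of 0.57 (limma adjusted p = 8.95e-06). Of the 4 genes of HSF-1 and its regulators, 0 passed in wild type of experiment 1, against 51.3% of all genes. In wild type of experiment 2 all 4 rose, against 36.7%. Among them was *hsb-1*, which encodes a protein that binds and restrains HSF-1 (log2 change 1.02). Of 16 cytosolic chaperone and co-chaperone genes, 7 rose and 0 fell in wild type of experiment 1, against 25.3% and 26% of all genes. In wild type of experiment 2, 7 rose and 4 fell, against 36.7% and 33.5%. In *ssu-1* mutants 5 rose and 0 fell (18.5% and 18.1% of all genes), and in *daf-16* mutants 9 rose and 3 fell (37.1% and 41.1%). The interaction of genotype and NaCl passed for 0 of the 16 in experiment 1, where 1.37% of all genes passed. In experiment 2 it was positive (*daf-16* minus wild type) for 7 of the 16, against 6.85% of all genes, and negative for 0, against 11.2%. At 500 mM, *daf-16* embryos had higher levels than wild type for 11 of the 16 and lower levels for 1, against 16.3% and 12.9% of all genes. *ahsa-1*, an activator of the HSP90 ATPase, had log2 changes of 0.52 and 0.70 in wild type, the J-domain gene *dnj-12* 0.46 and 0.68, and *sti-1*, which links HSP70 to HSP90, 0.01 in experiment 1, where it did not pass, and -0.93 in experiment 2. Of 7 organelle chaperone genes, 2 rose and 1 fell in wild type of experiment 1 (25.3% and 26% of all genes). In wild type of experiment 2, 1 rose and 4 fell (36.7% and 33.5% of all genes). There the mitochondrial chaperonin gene *hsp-60* fell by 2.03 and the endoplasmic reticulum HSP70 gene *hsp-4* by 2.06 on the log2 scale. Of 4 other proteotoxic stress genes, 1 rose and 0 fell in wild type of experiment 1 and 0 rose and 3 fell in experiment 2, against the same shares.

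Of 10 small heat-shock genes outside the 9, 5 rose and 5 fell in wild type of experiment 1, against 25.3% and 26% of all genes. In wild type of experiment 2, 6 rose and 4 fell, against 36.7% and 33.5%. F08H9.4, named *hsp-16.21* and not among the members, was at 0.24 and 0.35 FPKM in wild type at 50 mM in experiment 1 and at 70.2, 63.9 and 63.5 FPKM at 500 mM. In experiment 2, *hsp-16.21* was at 0.13, 0.90 and 0.17 FPKM at 50 mM and at 783, 703 and 575 FPKM at 500 mM, an increase with a log2 change of 8.97 (SE 0.21, limma adjusted p = 8.76e-12). In wild type at 500 mM its highest library was 1.11 and 1.36 times the lowest in the 2 experiments. *hsp-16.20* (F08H9.3) had log2 changes of 3.41 and 3.47 in wild type, *hsp-12.6* 3.61 and 6.30, and *hsp-12.3* 1.91 and 2.85, all past the threshold. The interaction was negative for *hsp-16.21* in both mutants, -5.15 in *ssu-1* (SE 0.31, limma adjusted p = 1.06e-05) and -4.53 in *daf-16* (SE 0.30, limma adjusted p = 1.15e-06).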

How the data were processed

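Per the labels and the methods, the authors aligned 75-nucleotide paired-end reads to the ce10 assembly with RSEM 1.2.15 and Bowtie 1.0.1 in strand-specific mode and deposited FPKM per gene and library, with identifiers of WormBase WS235. RSEM shares reads among near-identical copies by probability, so that values of single copies are uncertain. Of 45461 rows, 1 without a gene name was left out. A RefSeq table of assembly WBcel235 gave symbols and neighbors for 44079 identifiers and was not used for coordinates. All 22 columns matched a labeled sample.

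Tests used limma 3.58.1 in R 4.3.3 (lmFit, eBayes with trend) on log2(FPKM + 1), each experiment fitted with all its groups, over genes reaching an FPKM of 1 in 2 or more libraries, and calls were made at a Benjamini-Hochberg adjusted p under 0.05. Fold changes on this scale understate changes of low genes. The series text calls replicates biological but names no cultures, so p-values measure the spread between these libraries. All members are named; of each list, at most 4 genes passing in wild type, *hsf-1* and *gpdh-1* were eligible, with the 10 genes of highest likeness, and other genes named were chosen after their values were seen. The members and lists were chosen with earlier results of these data known. Alternatives were another pseudocount, no filter, rescaled or quantile-normalized FPKM, no trend, merged copies, a replicate block, the library series and each library left out. The limma tests were also run on simulated data in which each gene varied independently. That setting lacks the shared movement of the members, so it cannot show how the tests perform on them.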

Additional observations from a re-analysis of the deposited data

How the results depend on the processing

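In wild type of experiment 2, the count of members called, 2 of 9, was 1 with a pseudocount of 0.1, 0 without the filter on low FPKM, 1 with FPKM rescaled to the same total and 1 with the replicate number as a block (*hsp-16.1*, with *hsp-16.2* and *hsp-70* lost), and between 0 and 3 with each library left out. Leave-one-out counts were between 2 and 6 in *daf-16* mutants, between 0 and 3 for the interaction in experiment 2, and between 0 and 2 for the interaction of experiment and NaCl. With the replicate block, the interaction in experiment 2 and the comparison of *daf-16* with wild type at 500 mM each had 1 call, *hsp-16.1*, whose value depends on the split of copies. Over all genes, same-numbered libraries did not deviate together throughout. Pearson's r lay between -0.4 and 0.252 over 13 pairs in experiment 1 and between -0.285 and 0.28 over 7 pairs in experiment 2. In each experiment 3 pairs were over 0.1, and the numbers were not taken as pairs. For the members, *daf-16* replicates kept their order, with mean deviations of 0.74, -0.52 and -0.22 at 50 mM and 1.02, -1.35 and 0.34 at 500 mM. In wild type of experiment 2, replicates 4 and 5 changed order, at 0.87 and -0.36 against -0.69 and 0.75. A fit with pairs in *daf-16* alone was not run. The count of members with a change above 2 in wild type of experiment 1 was 5 with 0.1 added to both means and between 0 and 6 with libraries left out. In *ssu-1* mutants it was between 0 and 1 with libraries left out. In *daf-16* mutants it was 6 with 0.1 added to both means, 5 with rescaled FPKM and between 2 and 6 with libraries left out. Of the 10 most alike genes, 5 were kept with a pseudocount of 0.1. The causes of these shifts were not tested. The 5 comparisons of experiment 1 had 0 members called under each alternative run. The 3 libraries or fewer in a group and the spread between them limit all tests of the members.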
